A study of Caenorhabditis elegans with 9 samples.

Results

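The RNA-binding protein genes *hrpf-1* and *hrpf-2* (homologs of mammalian hnRNP F and H), *hrp-2* (also called *hrpr-1*, a homolog of hnRNP R) and *ptb-1* (a homolog of PTB), were followed in *C. elegans* through the cassette exons listed for them. Each gene had 1 cassette exon, so 4 exons were described out of 782 exons tested in *smg-1* mutants and 498 in *smg-2* mutants. Members were every row that carried one of these gene names, whatever its values, and all 4 had measurements of their own in both mutants. The study sequenced poly(A) RNA of whole, synchronized L4 hermaphrodites, the last larval stage, in 3 biological replicates of each of 3 genotypes. *smg-1* mutants were strain TR1331, mutated in the gene of the SMG-1 protein kinase. *smg-2* mutants were strain CB4043, mutated in the gene of the SMG-2 helicase, the homolog of UPF1. Wild-type animals were strain N2, and the labels give no treatment. Each mutant is a single strain, and the 2 comparisons with wild-type share all of their control libraries. Inclusion was measured as percent spliced in (PSI), the share of junction reads of an exon that do not skip it. The deposited values hold splice junctions and no gene levels, so neither the loss of *smg-1* or *smg-2* nor the tissues sampled could be checked from them. Junction reads over the tested exons summed to between 152874 and 319057 per *smg-1* library and to between 88649 and 208127 per wild-type library. For *smg-2*, where 498 exons counted, the sums lay between 47438 and 123213 per *smg-2* library and between 70071 and 160670 per wild-type library. An exon without a skipping read in a library has no known total there and adds nothing to its sum.

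Nonsense-mediated mRNA decay (NMD) is a surveillance pathway in which SMG-1 phosphorylates SMG-2 on mRNAs whose translation ends too early, and such mRNAs are then destroyed. An exon is called essential when skipping it gives an early stop codon and poison when including it does, and mRNAs of either kind become visible when NMD is disabled. Proteins of the hnRNP and PTB families bind pre-mRNA and steer splice site choice. In mammals hnRNP F and H bind runs of G, PTB binds pyrimidine-rich RNA, and PTB also promotes skipping of a frame-shifting exon in its own mRNA.

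In the NMD mutants, skipping made up a larger share of the junction reads of the *hrpf-1*, *hrpf-2* and *hrp-2* exons than in wild-type. For the *ptb-1* exon this held in *smg-1*. These are shares among the mRNAs present, and how often splicing itself skips the exons was not measured. An exon was called where the mean PSI differed by over 10 percentage points with an adjusted p under 0.05 (limma on the logit of PSI, adjusted over all exons tested). In *smg-1* all 4 exons were called lower than in wild-type, where 6.52% of the 782 tested exons were. In *smg-2*, 3 of 4 were called lower, where 8.23% of the 498 tested exons were, and *ptb-1* was not. Of the 4 exons, 0 were called higher by limma in either mutant, where 6.27% of tested exons were in *smg-1* and 6.83% in *smg-2*. For *hrpf-2* and *hrp-2*, with wild-type means of 99.4% and 96.2%, a rise of over 10 points was impossible. Such a rise would put *hrpf-1*, at 85.1% in wild-type, above the highest mutant means among the deposited exons, 95% and 94.6%. This 0 was therefore largely fixed in advance. Within the range of deposited mutant means, *hrpf-2* and *hrp-2* could only change downward. The shares over all tested exons are thus not a like background for the direction of these exons.

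All 4 exons break the reading frame, since none has a length divisible by 3 (a non-triplet exon). Of all tested exons, 41.4% were non-triplet in the *smg-1* comparison and 34.7% in the *smg-2* comparison. Among non-triplet exons alone, 13.9% were called lower in *smg-1* and 22.5% in *smg-2*. All 4 match a coding exon of the WBcel235 annotation at both ends, and 78.9% of the 782 exons match an annotated exon in this way.

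The *hrpf-2* exon is 145 nt long and is exon 4 of 8, at chrIV:6375619-6375763 on the minus strand of WBcel235. It follows an intron of 128 nt and precedes one of 97 nt, where the medians over the tested exons were 207 nt and 272.5 nt. The genomic stretch at chrIV:6375579-6375803 is printed 5′ to 3′ on the transcribed strand, with the exon in capitals, to show the sequence that skipping removes. The skipped mRNA is printed from the last 30 bases of exon 3 into exons 5 and 6, with the stop codon of the shifted frame in capitals.
*hrpf-2* exon with flanking introns: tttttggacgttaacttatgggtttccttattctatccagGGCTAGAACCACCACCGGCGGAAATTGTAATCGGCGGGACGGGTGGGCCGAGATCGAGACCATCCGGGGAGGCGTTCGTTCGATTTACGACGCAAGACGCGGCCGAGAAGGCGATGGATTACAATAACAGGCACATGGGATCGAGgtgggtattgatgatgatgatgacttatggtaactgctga
*hrpf-2* skipped mRNA: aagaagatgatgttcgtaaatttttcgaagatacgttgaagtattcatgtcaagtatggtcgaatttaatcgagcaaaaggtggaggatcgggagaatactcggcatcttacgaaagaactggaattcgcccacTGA
With the exon, the annotated mRNA encodes 610 amino acids. Without it, 104 nt are read in the shifted frame before the stop codon in exon 6, the predicted protein is 213 amino acids long (34.9% of full length), and the stop codon lies 385 nt before the last exon junction.

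The *ptb-1* exon is the shortest of the 4, at 34 nt, and is exon 11 of 14, at chrII:10688477-10688510 on the plus strand of WBcel235, between introns of 436 nt upstream and 247 nt downstream. It is printed within chrII:10688417-10688570 in the same way, since the pyrimidine-rich bases around it are the kind of sequence that mammalian PTB binds.
*ptb-1* exon with flanking introns: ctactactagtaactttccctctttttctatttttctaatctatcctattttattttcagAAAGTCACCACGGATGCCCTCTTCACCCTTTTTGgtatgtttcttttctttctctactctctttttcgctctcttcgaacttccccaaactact
*ptb-1* skipped mRNA: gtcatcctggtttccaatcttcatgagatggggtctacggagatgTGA
The skipped mRNA joins exon 10 (its last 30 bases are shown) to exon 12, where the stop codon in capitals follows after 15 nt. The predicted protein is 436 amino acids long against 615 with the exon (70.9%), and the stop codon lies 370 nt before the last exon junction.

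Short motifs bound by the mammalian homologs were counted on the transcribed strand in the 90 nt of intron on each side of the exon, overlapping matches included. TCTT, a motif of PTB, occurred 5 times downstream of the *ptb-1* exon and 1 time upstream. It occurred 1 time on each side of the *hrpf-2* exon, 1 time upstream of the *hrp-2* exon and on neither side of the *hrpf-1* exon. Of the 466 exons with introns long enough on both sides, 40.6% held TCTT downstream, 46.8% held it upstream and 1.07% held at least 5 matches downstream, a number taken from *ptb-1* itself. GGG, the core of the hnRNP F motif, occurred 1 time upstream and 2 times downstream of both the *hrpf-1* and the *hrpf-2* exon, and on neither side of the *hrp-2* and *ptb-1* exons. It was present upstream of 15.2%, downstream of 29.8% and on both sides of 5.58% of the 466 exons. These matches are letters in the sequence, and binding was not measured.

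In *hrpf-2*, which encodes an hnRNP F family protein with RNA recognition motifs, nearly all wild-type junction reads included the exon. PSI was 84.7%, 85.9% and 82.5% in *smg-1* replicates 1, 2 and 3. It was 91.2%, 89.2% and 80.0% in *smg-2* replicates 1, 2 and 3, and 99.53%, 99.33% and 99.33% in wild-type replicates 1, 2 and 3. All 6 mutant libraries lay below all 3 wild-type libraries, and *smg-2* replicate 3 was the lowest. The skipping junction was covered by 105, 69 and 60 reads in *smg-1*, by 15, 32 and 15 reads in *smg-2*, and by 2 reads in each wild-type library. Summed over replicates, skipping made up 15.4% of 1516 junction reads in *smg-1* and 0.586% of about 1024 in wild-type, a ratio of 26.3 with a 95% counting interval of 11.9 to 72.5. In *smg-2* it made up 11.5% of 541 reads, a ratio of 19.6 to wild-type (8.49 to 55.3). These exact intervals cover counting error only.

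Mean PSI of the *hrpf-2* exon was 84.4 ± 1.71% in *smg-1* and 99.4 ± 0.116% in wild-type (SD, n = 3 each), a difference of -15.05 points with a 95% interval of -19.6 to -10.4 (limma, adjusted p = 0.000510). In *smg-2* it was 86.8 ± 5.96%, a difference of -12.6 points (-21.8 to -3.39; limma, adjusted p = 0.00153). The threshold of 10 points was passed narrowly. Without *smg-2* replicate 3, which rested on 75 junction reads, the difference was -9.21 points and the exon was no longer called. It was not called either when PSI was tested in percent (limma, adjusted p = 0.0950), the scale from which the interval comes. If an included exon is counted double relative to a skipped one, the difference was -8.19 points for *smg-1* and -6.84 points for *smg-2*. Both are under the threshold. With inclusion halved, as for reads from 2 inclusion junctions, the difference was -25.8 points for *smg-1* and -21.8 points for *smg-2*, called in both.

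The exon of *hrpf-1*, the other hnRNP F homolog, is 248 nt long and had the lowest inclusion of the 4 in *smg-1* and *smg-2* by mean PSI. PSI was 47.2%, 42.2% and 39.2% in *smg-1* replicates 1, 2 and 3. It was 51.0%, 40.2% and 43.0% in *smg-2* replicates 1, 2 and 3, and 83.7%, 86.8% and 84.9% in wild-type replicates 1, 2 and 3. The mutant libraries overlapped each other and all lay below the wild-type libraries. The lowest total was 149 junction reads, in *smg-2* replicate 3, where the 95% Wilson interval of PSI was 35.3% to 51.0%. Skipping averaged 57.1% of junction reads in *smg-1*, 55.3% in *smg-2* and 14.9% in wild-type, 3.83 and 3.71 times the wild-type share.

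Mean PSI of the *hrpf-1* exon was 42.9 ± 4.05% in *smg-1* and 85.1 ± 1.56% in wild-type (SD, n = 3 each), a difference of -42.2 points (-48.8 to -35.6; limma, adjusted p = 0.00107). It was 44.7 ± 5.59% in *smg-2*, a difference of -40.4 points from wild-type (-49.5 to -31.3; limma, adjusted p = 0.00202). Ordered from the largest fall, the exon ranked 13 of 782 in *smg-1* and 14 of 498 in *smg-2*. The call held in each mutant under every alternative run.

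The *hrp-2* exon, 136 nt long, had the most junction reads of the 4 in each genotype. *hrp-2* encodes a protein of the hnRNP R and SYNCRIP family. PSI was 61.8%, 60.9% and 64.5% in *smg-1* replicates 1, 2 and 3. It was 52.5%, 54.1% and 57.1% in *smg-2* replicates 1, 2 and 3, and 95.55%, 96.59% and 96.55% in wild-type replicates 1, 2 and 3. The 3 genotypes did not overlap, with *smg-2* lowest and wild-type highest. Skipping reads numbered 981 of 2571, 569 of 1456 and 362 of 1019 junction reads in *smg-1*, 320 of 674, 522 of 1136 and 195 of 455 in *smg-2*, and 49 of 1101, 17 of 499 and 31 of 899 in wild-type. The mean skipped share was 37.6% in *smg-1*, 45.4% in *smg-2* and 3.77% in wild-type, 9.97 and 12.1 times the wild-type share.

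Mean PSI of the *hrp-2* exon was 62.4 ± 1.84% in *smg-1* and 96.2 ± 0.589% in wild-type (SD, n = 3 each), a difference of -33.8 points (-38.5 to -29.1; limma, adjusted p = 0.000510). In *smg-2* it was 54.6 ± 2.35%, a difference of -41.7 points from wild-type (-48.5 to -34.8; limma, adjusted p = 0.000545). The exon ranked 21 of 782 in *smg-1* and 13 of 498 in *smg-2* by size of fall, and it was called in both mutants under every alternative run. Its wild-type mean lies above the highest mutant mean among the deposited exons, 95% in the *smg-1* and 94.6% in the *smg-2* comparison, so at its wild-type level the exon would lie outside the range of listed mutant values.

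In *ptb-1*, the homolog of polypyrimidine tract-binding protein, 21.1% of junction reads on average already skipped the exon in wild-type. PSI was 45.0%, 55.2% and 53.7% in *smg-1* replicates 1, 2 and 3. It was 55.7%, 58.7% and 82.8% in *smg-2* replicates 1, 2 and 3, and 84.6%, 69.7% and 82.5% in wild-type replicates 1, 2 and 3. All *smg-1* libraries lay below all wild-type libraries, while *smg-2* replicate 3 lay within the wild-type range. It held 5 skipping reads of 29, with a 95% Wilson interval of 65.5% to 92.4%, and wild-type replicate 2 held 10 of 33, with an interval of 52.7% to 82.6%. The other libraries held 61 to 280 junction reads.

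Mean PSI of the *ptb-1* exon was 51.3 ± 5.50% in *smg-1* and 79.0 ± 8.08% in wild-type (SD, n = 3 each), a difference of -27.7 points (-40.1 to -15.2; limma, adjusted p = 0.0250). This call was lost when any library but wild-type replicate 2 was left out, with differences of -29.6 to -24.5 points and limma's adjusted p of 0.0696 to 0.103, and with the replicate number as a block (limma, adjusted p = 0.0821). Without wild-type replicate 2 the difference was -32.3 points (limma, adjusted p = 0.00667). In *smg-2* mean PSI was 65.7 ± 14.8%, and the difference of -13.2 points from wild-type had an interval of -33.3 to 6.85 (limma, adjusted p = 0.492). Without *smg-2* replicate 3 it was -21.7 points (limma, adjusted p = 0.123). A fall as large as the one in *smg-1* lies within the interval from all libraries.

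**Figure D1:**
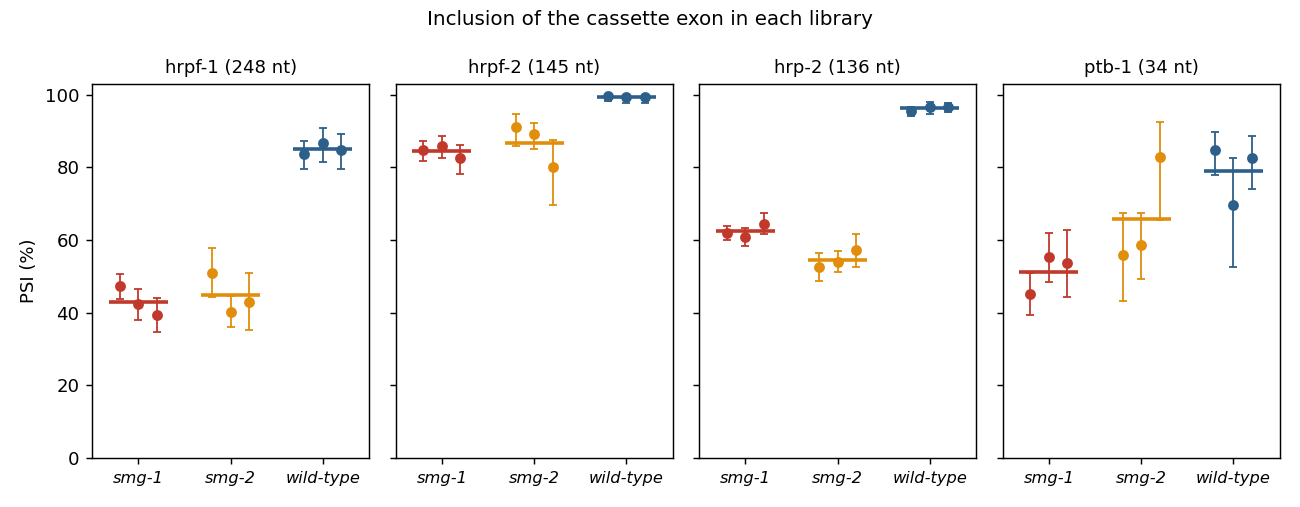
PSI (%) of the 4 cassette exons in each library, with *smg-1* in red, *smg-2* in orange and wild-type in blue, 3 libraries per genotype. Points are libraries with 95% Wilson intervals of counting error and bars are means. Only the *ptb-1* exon has a mutant library, *smg-2* replicate 3 at 82.8%, within the wild-type range.

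By mean PSI, the order of the exons in *smg-1* was *hrpf-2*, *hrp-2*, *ptb-1* and *hrpf-1*, and in wild-type *hrpf-2*, *hrp-2*, *hrpf-1* and *ptb-1*. In *smg-2* the order was *hrpf-2*, *ptb-1*, *hrp-2* and *hrpf-1*, where the libraries of *ptb-1* overlapped those of *hrpf-2* on one side and of *hrp-2* on the other. In *smg-1* the libraries of *ptb-1* and *hrpf-1* overlapped, and in wild-type the libraries of *hrpf-1* and *ptb-1* did.

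For *smg-1* the 4 exons had a median difference of -30.7 points, beside -0.42 points over all tested exons. For *smg-2* the medians were -26.8 points over the 4 exons and -0.13 points over all. Every library of the mutant lay below every wild-type library for all 4 exons in *smg-1* and for 3 of 4 in *smg-2*, which was the case for 19.4% and 16% of exons with values in all libraries. Deposited exons had a mutant mean of 5.03% to 95% in *smg-1* and of 5.39% to 94.6% in *smg-2*, while wild-type means ran from 0% to 100%, so the exons of *hrpf-2*, at 99.4% in wild-type, and *hrp-2*, at 96.2%, would lie outside both ranges at their wild-type levels. Within that range their inclusion in the mutants could only be lower than in wild-type.

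**Figure D2:**
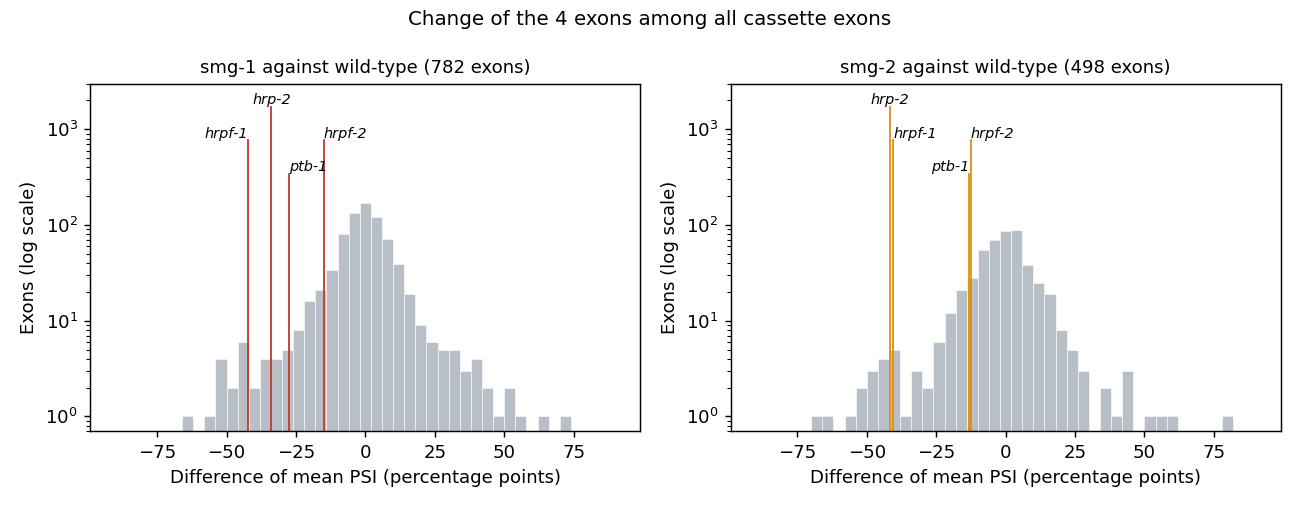
Number of exons (log scale) by the difference of mean PSI, mutant minus wild-type in percentage points, over all tested exons. Vertical lines mark the 4 exons, all below -10 points in both mutants.

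The mutants were also set against each other, to ask whether the kinase and the helicase mutant leave the skipped mRNAs at the same share. For *hrp-2* the difference of mean PSI, *smg-2* minus *smg-1*, was -7.84 points, and all *smg-2* libraries lay below all *smg-1* libraries. The same held for 8.05% of exons, and 9.05% had all *smg-2* libraries above all *smg-1* libraries. The 95% interval for *hrp-2*, taken from PSI in percent, was -14.7 to -0.971. On the logit of PSI, the scale of the test, the difference did not pass (limma, adjusted p = 0.645). For *hrpf-1* the difference was 1.81 points (-7.65 to 11.3; limma, adjusted p = 0.913), and for *hrpf-2* it was 2.44 points (-6.48 to 11.4; limma, adjusted p = 0.804). For *ptb-1* it was 14.45 points (-3.18 to 32.1; limma, adjusted p = 0.645). Of the 498 exons, 0 were called by limma (0%), while 42 had an unadjusted p under 0.05. The *hrp-2* exon was not one of them. When libraries were weighted by their junction reads 2 exons were called, those of *lea-1* and *ckc-1*, named because the count is small.

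The place of the new stop codon differed between the genes. Skipping the *hrp-2* exon, exon 4 of 8 at chrI:12063111-12063246 on the minus strand, between introns of 201 nt upstream and 214 nt downstream, leaves 6 nt before the stop codon in exon 5. The predicted protein is 262 amino acids long against 611 (42.9%), and the stop codon lies 796 nt before the last exon junction. Skipping the *hrpf-1* exon, exon 5 of 7 at chrI:6754417-6754664 on the minus strand, between introns of 500 nt and 614 nt, leaves 37 nt before the stop codon in exon 6. The predicted protein is 362 amino acids long against 549 (65.9%), and the stop codon lies 39 nt before the last exon junction, the shortest such distance of the 4. The paper compares NMD-sensitive events with a minimum distance of the stop codon from the last exon junction complex. *hrpf-1* falls short of that minimum and the other genes exceed it, and any bearing on decay was not tested. The annotation itself holds a skipped form only for *hrpf-1*, where 1 of 2 transcripts that span the exon skips it.

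With the exon included, all 4 stop codons lie in the last exon. The predicted 3′ UTR is 476 nt in *hrpf-1*, 1509 nt in *hrpf-2*, 1478 nt in *hrp-2* and 995 nt in *ptb-1* when the exon is skipped, and 163, 463, 567 and 492 nt in the same genes when it is included. *hrpf-1*, with the shortest distance from stop codon to last junction, had the largest fall of the 4 exons in *smg-1*, and *hrp-2*, with the longest, had the largest fall in *smg-2*.

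**Figure D3:**
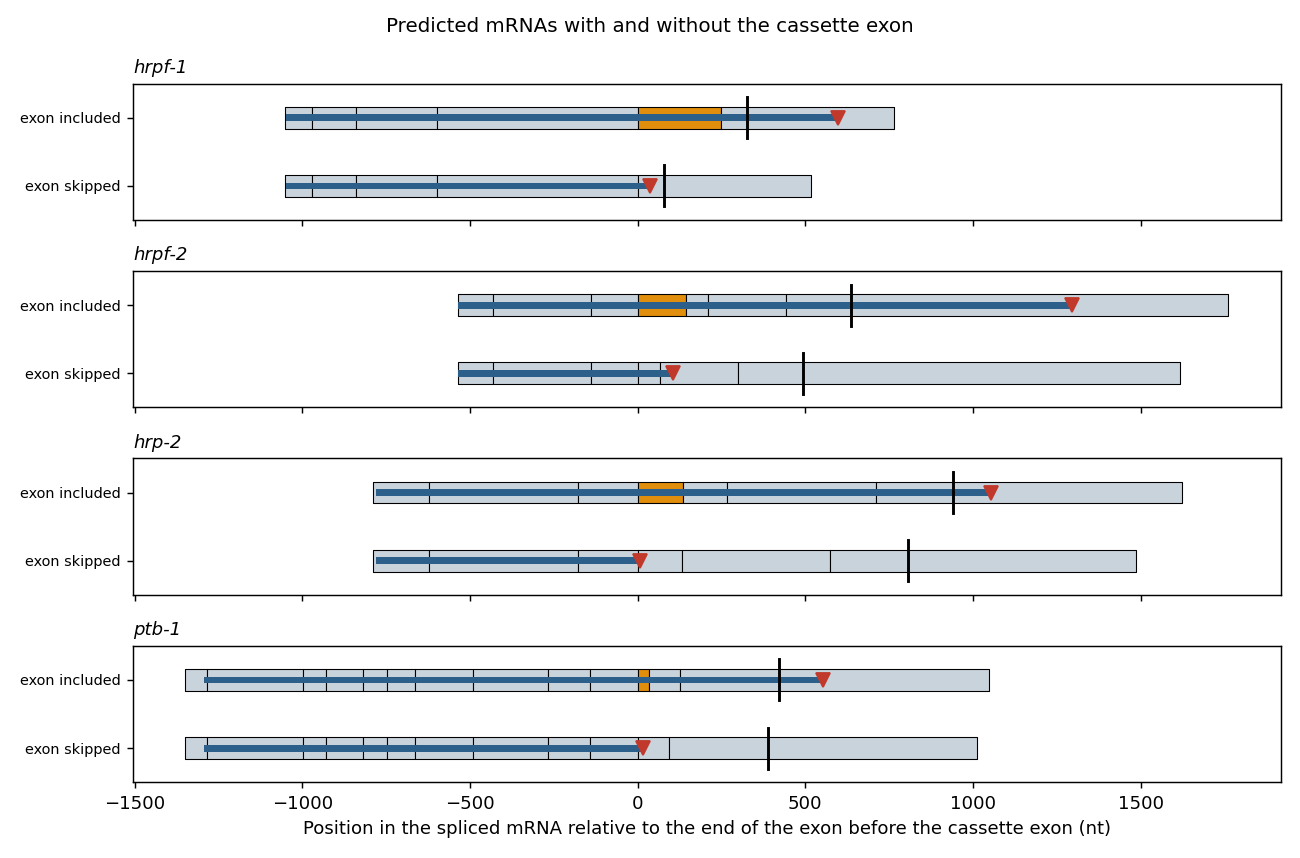
Predicted mRNAs of the 4 genes with the cassette exon (orange) and without it, drawn to scale in nt from the end of the exon before it. Boxes are exons, blue bars the reading frame, red triangles stop codons and black lines the last exon junction. Skipping moves every stop codon upstream of the last junction, by 39 nt in *hrpf-1* and by 370 to 796 nt in the others.

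To set the skipped and included forms on a common scale, the junction reads were divided by size factors. The factors came from the 457 exons with skipping reads in all 9 libraries, since totals are unknown without them. That set thus depends on the skipped form. These scaled reads are relative to other cassette exons and are not gene levels, and they were not tested. The skipped form of *hrp-2* had 406, 376 and 325 scaled reads in *smg-1* replicates 1, 2 and 3, 478, 498 and 511 in *smg-2*, and 31.2, 29.4 and 27.7 in wild-type. The means were 12.5 times wild-type in *smg-1* and 16.8 times in *smg-2*. The included form of *hrp-2* averaged 611 scaled reads in *smg-1*, 598 in *smg-2* and 760 in wild-type, or 0.805 and 0.788 times wild-type.

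By their means, the other 3 genes had the same direction. The skipped form of *hrpf-1* was 5.42 times wild-type in *smg-1* and 5.84 times in *smg-2*, and its included form 0.691 and 0.785 times. The skipped form of *ptb-1* was 3.56 times wild-type in *smg-1* and 2.03 times in *smg-2*, and its included form 0.925 and 0.906 times. In *smg-2* replicate 3 the skipped form of *ptb-1* was at 13.1 scaled reads, below the wild-type libraries at 14 to 17.3. The skipped form of *hrpf-2* averaged 47.6 scaled reads in *smg-1* and 30.7 in *smg-2*, against 2.17 in wild-type, which rests on 2 reads per library, and its included form was 0.735 and 0.610 times wild-type. The included forms did not overlap with wild-type for *hrpf-1* and *hrp-2* in *smg-1* and for *hrpf-2* in *smg-2*, where all mutant libraries were lower, and they overlapped in the other 5 of 8 pairs. Scaled by the sum of reads, *hrp-2* in *smg-2* and *hrpf-2* in *smg-1* did not overlap with wild-type either, and 3 of 8 pairs overlapped. The share of all exons whose included form separates in this way was not computed, so these counts have no background to be set against. For *ptb-1* in *smg-1* the included form was 1.03 times wild-type without wild-type replicate 1 and 1.02 times without wild-type replicate 3, and in *smg-2* it was 1.01 times without wild-type replicate 1. Without wild-type replicate 2 the included form of *hrpf-1* was 0.863 times wild-type in *smg-1* and 0.980 times in *smg-2*. That of *hrpf-2* was then 0.961 and 0.798 times, and that of *ptb-1* 0.777 and 0.762 times. With size factors, most of the fall of *hrpf-1* in *smg-2* and of *hrpf-2* in *smg-1* thus rests on that library. Scaled by the sum of reads, these 2 included forms were 0.865 and 0.875 times wild-type without it. They were 0.743 and 0.720 times with all libraries.

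Summed over both forms, scaled reads were 1.24 times wild-type in *smg-1* and 1.39 times in *smg-2* for *hrp-2*, 1.38 and 1.52 times for *hrpf-1*, 1.45 and 1.13 times for *ptb-1*, and 0.866 and 0.694 times for *hrpf-2*. Without wild-type replicate 2 the sum of *hrpf-2* in *smg-1* was 1.13 times wild-type and that of *ptb-1* in *smg-2* was 0.987 times, so both of these directions rest on that library. Scaling by the sum of reads in place of size factors gave sums of 1.20 and 1.29 times for *hrp-2* and 0.848 and 0.663 times for *hrpf-2*, and no sum changed direction with the scaling while all libraries were kept. All sums count skipping and inclusion reads alike, though whether 1 or 2 inclusion junctions were counted is not known. Their size, and possibly their direction, depends on that weight, and they were not rerun with another. The libraries came from whole animals, so a change in the cells that express a gene and a change within cells cannot be told apart.

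**Figure D4:**
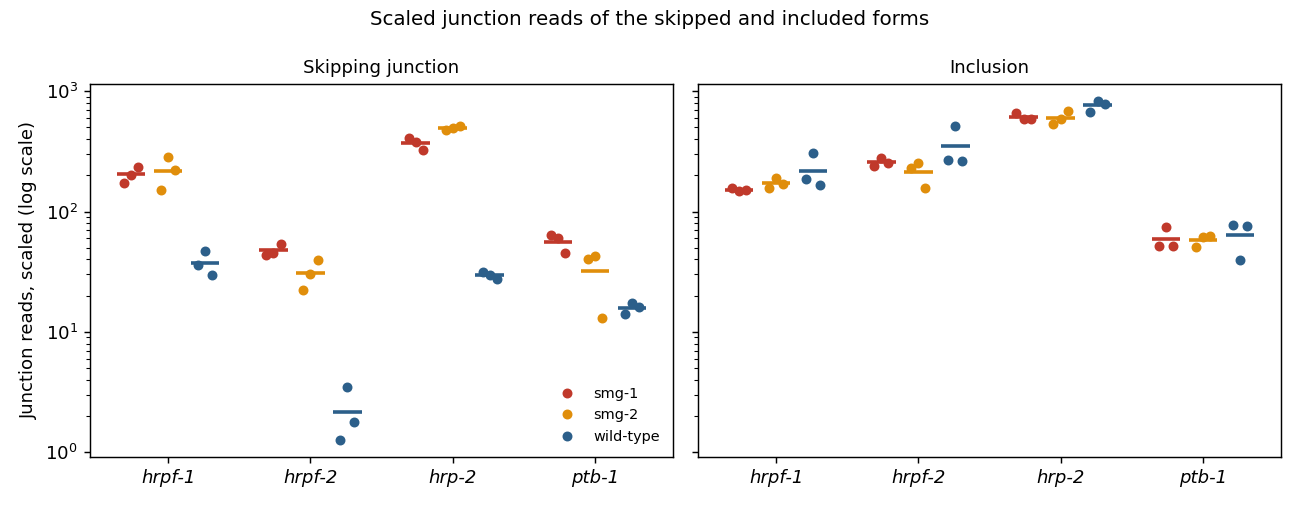
Scaled junction reads (log scale) of the skipped and the included form in each library, with *smg-1* in red, *smg-2* in orange and wild-type in blue. Points are libraries and bars are means of 3. For *hrp-2* the skipped form sits at 325 to 511 scaled reads in the mutants and at 27.7 to 31.2 in wild-type, while the mean of the included form is 0.805 times wild-type in *smg-1* and 0.788 times in *smg-2*.

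Exons of other splicing regulators were counted from a list of 44 genes, of which 14 had a tested exon in the *smg-1* comparison and 13 in the *smg-2* comparison. In *smg-1*, 7 were called lower, 3 higher and 4 were not called, with a median of -22.2 points. In *smg-2*, 7 were called lower, 3 higher and 3 were not called, with a median of -36.4 points. Over all tested exons the medians, in which rises and falls offset each other, were -0.42 and -0.13 points. These calls made up 71.4% of the list for *smg-1* and 76.9% for *smg-2*, beside 12.8% and 15.1% of all tested exons. The list was drawn up with earlier results of these data known.

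The 7 regulators whose exons were called lower were the same in both mutants, namely *asd-1*, *etr-1*, *fubl-1*, *fubl-3*, *hrpk-1*, *pes-4* and *sfa-1*, and each of these called exons is non-triplet. *asd-1* encodes an RBFOX family protein, *etr-1* a CELF family protein and *sfa-1* the branch point binding protein SF1. The exons called higher in both mutants were those of *rbm-39* (66 nt) and *rsp-4* (186 nt), whose lengths are divisible by 3. The *rbm-39* exon had mean PSIs of 55.1% for *smg-1*, 62.0% for *smg-2* and 3.32% in wild-type. The *rsp-7* exon was called higher in *smg-1* and had no values of its own in *smg-2*, and the *tiar-1* exon was called higher in *smg-2*, at 12.9 points, and stayed under 10 points in *smg-1*, at 9.45 points. The exons of *fox-1*, *mbl-1* and *uaf-1* were called in neither mutant.

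The 3 exons closest to each member in mean PSI over the 3 genotypes, among the 498 exons, were listed as a description. Closest to *hrp-2* were exons of *hrpk-1* (44 nt, at a distance of 5.64 points), *cbl-1* (12.3) and C07B5.4 (12.7). *hrpk-1*, which encodes an hnRNP K homolog, had a mean PSI of 62.5% in *smg-1*, 60.2% in *smg-2* and 96.6% in wild-type. Closest to *hrpf-1* were exons of *pes-4* (76 nt, 5.15 points), *ddo-1* (6.67) and *etr-1* (8.04). *pes-4*, a gene of a KH-domain RNA-binding protein, had a mean PSI of 38.2% in *smg-1*, 44.1% in *smg-2* and 83.1% in wild-type.

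Closest to *hrpf-2* were exons of T10E9.4 (141 nt, 2.11 points), *trd-1* (2.25) and *alh-10* (4.51). Closest to *ptb-1* were exons of *frpr-9* (27 nt, 1.01 points), F46C5.6 (6.74) and *ttn-1* (9.17), whose lengths are all divisible by 3, unlike that of the *ptb-1* exon. Of the 12 exons so listed, 3 belong to genes of the splicing regulator list.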

How the data were processed

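Poly(A) RNA of 9 libraries was sequenced. The authors aligned the reads with STAR and quantified cassette exons with JUM, requiring at least 5 junction reads per event. The build used for alignment is not given in the sources used here, while the methods name the WormBase WS290 annotation for isoforms and ce11, the same assembly as WBcel235, for conservation. Usage was deposited by the authors as the fraction of an event's junction reads over the skipping junction, and PSI was taken as 100% minus that usage. Read counts of the skipping junction were deposited by the authors alongside. Totals could be derived only in cells with usage above 0. Count divided by usage gave whole totals (tolerance on usage 6e-05) in 100% of cells only with the count labels of mutant and wild-type exchanged, against 25.8% of cells in the *smg-1* data and 25.3% in the *smg-2* data as labelled. Usage under the wild-type label was identical in both data sets, as wild-type libraries must be, while counts were identical under the mutant labels, so the counts were exchanged. Whether 1 or 2 inclusion junctions enter the denominator is not stated. Columns of the authors' own p-values and PSI changes were not used.

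Of 786 *smg-1* exons, 1 had inverted coordinates and 3 had fewer than 2 values in a group. Of 620 *smg-2* exons, 122 repeated the *smg-1* values and were left out. Cells with no read (25 and 3) counted as missing values. After limiting PSI to 1-99%, its logit was tested with limma 3.58.1 (R 4.3.3, lmFit and eBayes, checked on simulated data) in the mutant and wild-type libraries of each comparison, with Benjamini-Hochberg adjustment over all exons. Intervals in points come from limma on PSI in percent. Wilson intervals cover counting error only. Isoforms and sequences come from the WBcel235 genome with the Ensembl annotation, matched by exon coordinates. Protein sequences were not used here. Figures and tables were made with Python 3.11.15.

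Deviations of same-numbered libraries of *smg-2* and *smg-1* had correlations of 0.125, 0.106 and 0.101. Differently numbered ones ran from -0.185 to 0.116, so pairing by number was not established. For same-numbered libraries the correlations were -0.0489 to 0.0854 for *smg-1* and wild-type and -0.00924 to 0.157 for *smg-2* and wild-type. These did not establish pairing either. The alternatives changed the limits and scale of PSI, the weight of inclusion, the minimum of reads, the weighting of libraries, the prior variance, the replicate block, the libraries included and the thresholds. Doubled inclusion, and scaled reads with each library left out, were added after seeing the data. Named exons were all rows of the 4 genes, the 3 exons nearest to each in mean PSI, members of the list of 44 splicing regulators, and exons in counts of 5 or fewer. The 4 genes and the list were chosen with earlier results of these data known.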

Additional observations from a re-analysis of the deposited data

How the results depend on the processing

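The calls of *hrp-2* and *hrpf-1* against wild-type held under all 15 alternatives for *smg-1* and all 16 for *smg-2*, and *ptb-1* in *smg-2* was called under none. For *hrpf-2* in *smg-1*, 14 of 15 kept the call, and doubled inclusion gave -8.19 points. For *hrpf-2* in *smg-2*, 13 of 16 kept it. PSI in percent gave the same -12.6 points with a limma adjusted p of 0.0950, doubled inclusion gave -6.84 points, and leaving out a library gave -14.8 to -9.21 points, with the call lost without *smg-2* replicate 3. The counts of 15 and 16 alternatives leave out the changed thresholds. At 20 points *hrpf-2* would be called in neither mutant, with differences of -15.05 and -12.6 points. At a threshold of 0.01 for limma's adjusted p, *ptb-1* would not be called in *smg-1*. For *ptb-1* in *smg-1*, 9 of 15 kept the call. Leaving out a library gave -32.3 to -24.5 points, and the replicate block left -27.7 points with a limma adjusted p of 0.0821. With that block 80 exons were called in *smg-1*, 63 in *smg-2* and 0 between the mutants, and no other call of a member changed. The numbers of exons called were 158 at 5 points, 56 at 20 points and 64 at an adjusted p of 0.01 in *smg-1* (100 as reported), 41 at 20 points in *smg-2* (75), and 2 between the mutants with weights (0), of which *lea-1* differed by -23.1 and *ckc-1* by -25.1 points, *smg-2* minus *smg-1*. The causes were not tested. The fewest junction reads of a member were 29, for *ptb-1* in *smg-2* replicate 3, and 33, for *ptb-1* in wild-type replicate 2.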
